A study of Mus musculus with 6 samples.

Results

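In CD8 T cells sorted from mouse spleen, 10 genes of cytokine feedback and signalling were followed. They are the feedback inhibitors Socs1, Socs2, Socs3 and Cish, the kinases Pim1 and Pim2, and the transcription factors Stat3, Stat4, Stat5a and Stat5b. They were taken by name from the table of all genes, where all 10 are present among 17744 genes. RNA-seq was done on 6 libraries of CD45+ CD3+ CD8a+ cells, 3 from control mice and 3 from mice given focused ultrasound irradiation, which directs converging sound waves at an organ. According to the title of the series, that organ was the spleen and the question was whether its immune function is activated. The labels call the control mice wt and put the treatment in the genotype field of the treated mice, so no other genotype is stated for them. Strain, sex, age, ultrasound dose and the interval after treatment are not given in the labels, nor whether each library came from its own mouse, so p-values measure the spread between these samples.

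Cytokines such as IL-2, IL-7, IL-12, IL-21 and the interferons bind receptors whose tails carry Janus kinases (JAKs). The kinases phosphorylate STAT proteins, which enter the nucleus and switch on target genes. SOCS proteins and CIS (the product of Cish) are among those targets and act back on the receptor complex, and the Pim kinases are targets that favour growth and survival. In CD8 T cells, CIS is also known to restrain signalling from the antigen receptor, and SOCS1 to restrain responses to interferon-gamma and to cytokines of the IL-2 family.

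Promoter sequences of 3 of the inhibitors are shown first, because their transcripts differed in pattern between libraries and because each window holds a motif of the pathway. The windows are RefSeq sequences of GRCm38.p6, from 250 bases before to 50 bases after an annotated start, and 9 of the 10 genes have 1 or more such windows. Capitals mark matches, searched on both strands, to TTCNNNGAA, the core of the element bound by most STAT dimers, or to TTTCNNTTTC, the core of the interferon-stimulated response element. The windows lie at chr9:107296409-107296708 on the plus strand for Cish, at chr11:117969317-117969616 on the minus strand for Socs3 and at chr16:10785487-10785786 on the minus strand for Socs1.
Cish: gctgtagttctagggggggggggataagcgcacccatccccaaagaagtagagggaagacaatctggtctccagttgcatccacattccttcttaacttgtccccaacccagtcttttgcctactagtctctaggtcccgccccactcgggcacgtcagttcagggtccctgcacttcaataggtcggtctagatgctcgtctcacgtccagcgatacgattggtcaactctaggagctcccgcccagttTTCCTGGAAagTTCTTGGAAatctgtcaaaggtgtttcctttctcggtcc
Socs3: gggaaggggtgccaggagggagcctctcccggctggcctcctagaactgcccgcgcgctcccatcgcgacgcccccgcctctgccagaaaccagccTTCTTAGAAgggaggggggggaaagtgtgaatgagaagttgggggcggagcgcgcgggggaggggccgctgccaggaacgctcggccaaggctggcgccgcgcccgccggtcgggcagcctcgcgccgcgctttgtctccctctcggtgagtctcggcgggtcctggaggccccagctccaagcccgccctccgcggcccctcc
Socs1: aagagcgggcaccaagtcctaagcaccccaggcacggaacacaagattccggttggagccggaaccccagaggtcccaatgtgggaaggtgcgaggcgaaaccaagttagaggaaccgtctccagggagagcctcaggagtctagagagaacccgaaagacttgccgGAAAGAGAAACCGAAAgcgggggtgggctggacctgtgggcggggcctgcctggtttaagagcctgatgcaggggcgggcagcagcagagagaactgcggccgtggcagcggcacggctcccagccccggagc

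The Cish window holds 2 matches to TTCNNNGAA, the first beginning at the annotated start and the second 11 bases after it. The Socs3 window holds 1, beginning 154 bases before the start. Of 32851 windows of this length in the whole table, 8.3% hold at least 1 match and 0.457% hold at least 2. The Socs1 window has no match to TTCNNNGAA and 2 overlapping matches to TTTCNNTTTC, beginning 83 and 77 bases before the start, where 3.44% of all windows hold at least 1 and 0.225% at least 2. The windows of Pim1, Pim2, Stat3, Stat5a and Stat5b hold neither motif, and 1 of the windows of Stat4 holds 1 match to TTTCNNTTTC. These matches describe letters in the windows, and binding was not measured.

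The libraries hold 35024080 to 38113103 reads, as recovered from the deposited values. Ultrasound 1 stood apart from ultrasound 2 and ultrasound 3: the mitochondrial genome supplied 2.05% to 2.70% of control reads and 2.19% of those of ultrasound 1, but 0.954% for ultrasound 2 and 0.937% for ultrasound 3. CD8 T cell markers were abundant in every library, with a summed level over 8 markers of 2747 to 2870 FPKM (fragments scaled to gene length and library size) in controls and 2409 to 3073 in ultrasound libraries. For 2 of the 8, Cd3d and Lat, all ultrasound libraries lay below all controls, as for 8.96% of all genes tested. Markers of other cells were detected as well, at levels that differed between libraries. The summed level of 10 neutrophil markers was 183 to 565 FPKM in controls, 2242 in ultrasound 1, and 633 and 667 in ultrasound 2 and ultrasound 3, and for 9 of the 10 the lowest ultrasound value exceeded the highest control. Over 12 monocyte and macrophage markers it was 407 to 884 FPKM in controls and 2052 to 3444 in ultrasound libraries, again with 9 markers whose groups did not overlap. Of all genes tested, 25.9% had all ultrasound libraries above all controls. Over 8 B cell markers it was 215 to 329 FPKM in controls, 160 in ultrasound 1, and 851 and 738 in ultrasound 2 and ultrasound 3. Over 4 NK cell markers it was 3.83 to 6.06 FPKM in controls and 8.20, 25.2 and 22.2 in ultrasound 1, 2 and 3, over 6 dendritic cell markers 17.5 to 37.0 in controls and 21.7 to 63.1 in ultrasound libraries, over 7 erythroid markers 83.2 to 133 and 55.3 to 112, and over 5 platelet markers 1.05 to 2.77 and 1.86 to 4.45. No marker was listed at 0 in any library. Neutrophils, monocytes and B cells also use SOCS, Pim and STAT genes, and the part of these cells in the values below was not tested.

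**Figure D1:**
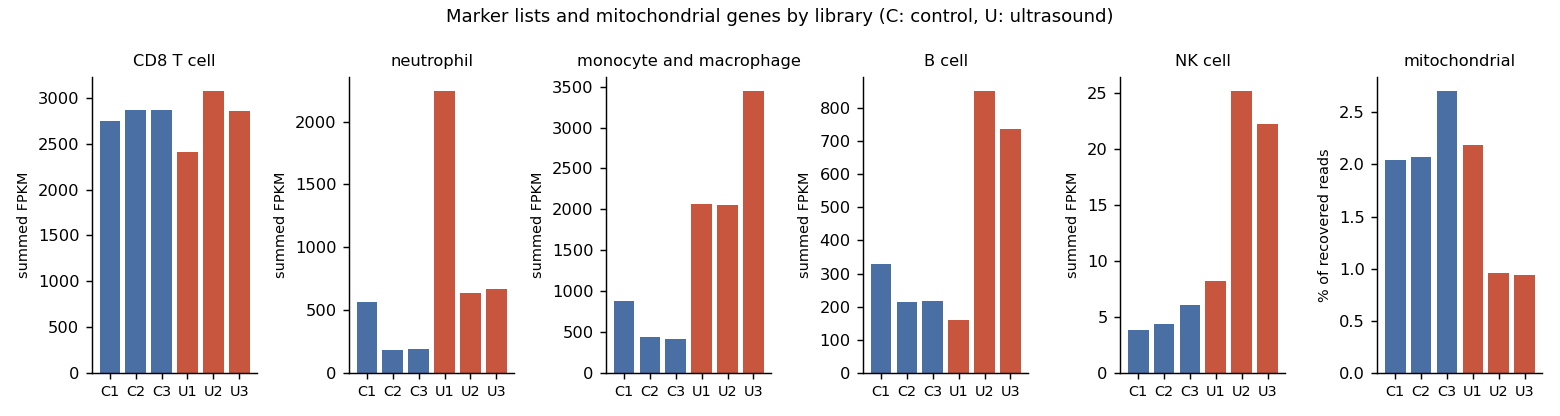
Summed FPKM of 5 marker lists and the mitochondrial share of recovered reads (last panel, in percent), one bar per library, with controls in blue and ultrasound libraries in red. The neutrophil bar is highest in ultrasound 1 at 2242 FPKM, while B cell and NK cell bars are highest, and the mitochondrial bars lowest, in ultrasound 2 and ultrasound 3.

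Between the groups, Socs1 was the 1 gene of the 10 whose ultrasound libraries all lay on one side of all controls, with a log2 change of -1.06. Among all genes tested, the ultrasound libraries lay wholly above the controls for 25.9% and wholly below them for 8.96%. Socs3 and Pim1 were far lower in ultrasound 2 and ultrasound 3 and at control level in ultrasound 1. Cish ran the other way, with its highest value in ultrasound 1. The 4 STAT genes had log2 changes between -0.19 and 0.18. None of the 9 genes tested passed an adjusted p of 0.05 in limma over all 6 libraries, where 8.11% of the 10655 genes tested did (698 higher and 166 lower, and 281 and 187 with median-of-ratios scaling). At an unadjusted p under 0.05 there were 4 of the 9, Socs1, Socs3, Cish and Pim1, where 31.2% of all genes tested were. Without ultrasound 1, 4 genes passed the adjusted threshold, Socs1, Socs3, Pim1 and Pim2, all lower, against 53.7% of all genes. In the authors' deposited table, Socs1 and Pim1 had q under 0.05, as did 12.3% of its genes.

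**Figure D2:**
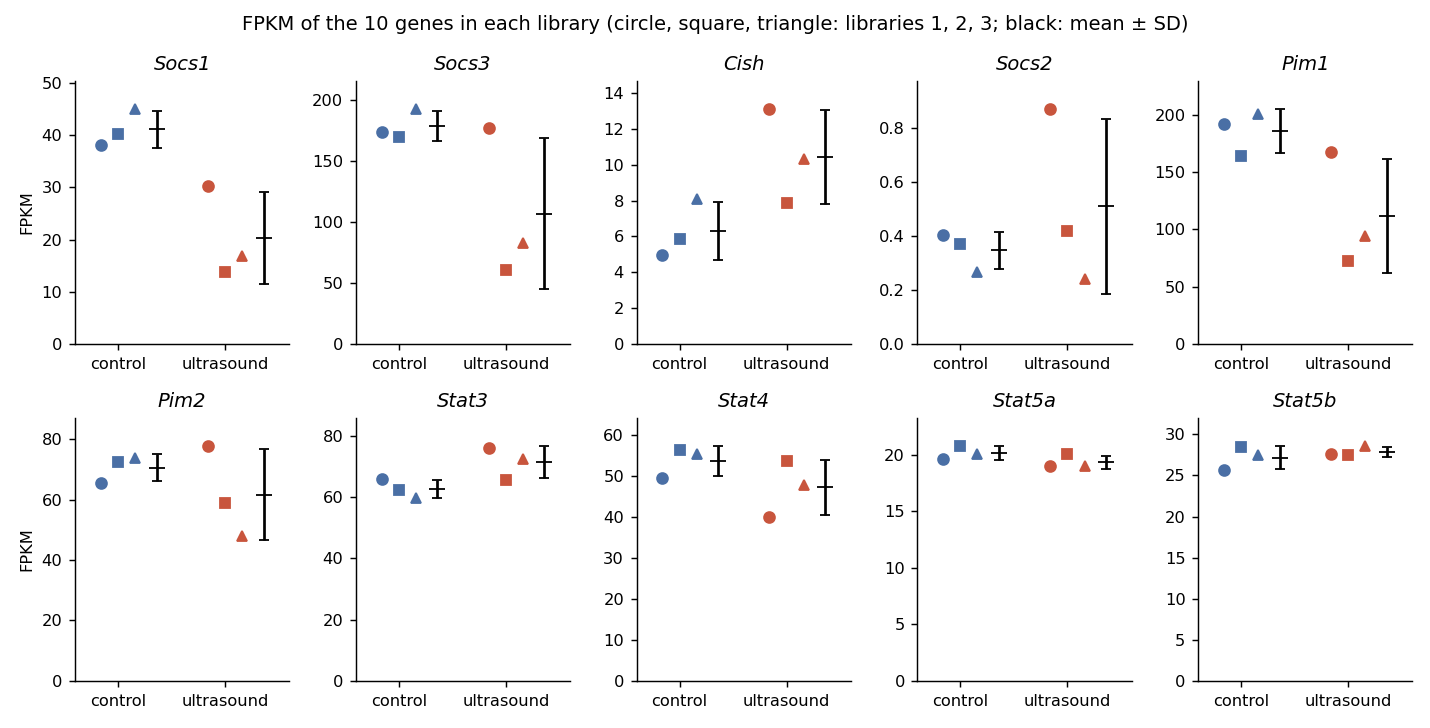
FPKM of each of the 10 genes (vertical axes, each from 0) in 3 control libraries (blue) and 3 ultrasound libraries (red), with the group mean and SD in black. Socs1 shows no overlap between groups, from 13.8 to 30.3 FPKM in ultrasound libraries and from 38.2 to 45.0 in controls, and the ultrasound 1 point lies apart from the other ultrasound points for Socs3 and Pim1.

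The genes covered a wide range of levels per length. In controls, Pim1 and Socs3 were the most abundant, at 185 ± 19.3 and 179 ± 12.2 FPKM (SD, n = 3 each), and their control ranges overlapped. Pim2 at 70.5 ± 4.48 and Stat3 at 62.7 ± 2.99 FPKM came next (SD, n = 3 each), again with overlapping ranges. Below them, with control ranges that did not touch, came Stat4 (53.7 ± 3.61 FPKM), Socs1 (41.1 ± 3.50), Stat5b (27.2 ± 1.42), Stat5a (20.2 ± 0.595), Cish (6.31 ± 1.61) and Socs2 (0.347 ± 0.0697), each as SD with n = 3. In ultrasound libraries the order changed at 2 places by group mean: Stat3 at 71.4 ± 5.28 stood above Pim2 at 61.6 ± 15.0 FPKM, and Stat5b at 27.9 ± 0.595 above Socs1 at 20.3 ± 8.77 FPKM (SD, n = 3 each). In both cases the ranges of the 2 genes overlapped in ultrasound libraries.

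Socs1 (NCBI Gene 12703) encodes an inhibitor that binds JAK1, JAK2 and TYK2 directly through a kinase inhibitory region. It had 38.2, 40.2 and 45.0 FPKM in controls 1, 2 and 3, against 30.3, 13.8 and 16.8 FPKM in ultrasound 1, 2 and 3. All ultrasound libraries were lower than all controls, which held for 8.96% of the genes tested, and ultrasound 1 was the nearest to the controls. The log2 change was -1.06 with a standard error of 0.26 (95% interval -1.69 to -0.43, limma adjusted p 0.0575), lower than that of all but 1.31% of genes tested. Without ultrasound 1 it was -1.37 with a limma adjusted p of 0.000295, and ultrasound 1 alone lay -0.43 from the control mean on the log2(FPKM + 1) scale. In the authors' deposited table Socs1 has a log2 fold change of -1.14 with q 0.00455. The value rests on 693 to 2126 reads per library. These are bulk libraries, in which fewer cells that express a gene and less of its RNA per cell cannot be told apart.

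Socs3 (NCBI Gene 12702) encodes the inhibitor of receptors that use the gp130 chain, such as that of IL-6, and is induced mainly through STAT3. Its level was 174, 170 and 193 FPKM in the 3 controls, against 177, 60.6 and 82.8 FPKM in ultrasound 1, 2 and 3. Ultrasound 1 lay inside the control range, so the groups overlapped, while ultrasound 2 and ultrasound 3 lay below every control. The log2 change was -0.88 with a standard error of 0.36 (limma adjusted p 0.151). It was -1.32 without ultrasound 1 (limma adjusted p 0.000730) and -0.01 for ultrasound 1 against the controls, in a fit with a term for the other pair. The authors' deposited table gives Socs3 a log2 fold change of -0.86 with q 0.111.

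Cish (NCBI Gene 12700), whose product CIS is induced by STAT5, showed the opposite direction. Its level was 4.99, 5.84 and 8.10 FPKM in controls 1, 2 and 3, and 13.1, 7.84 and 10.3 FPKM in ultrasound 1, 2 and 3. Ultrasound 2 lay just under control 3, so the groups overlapped, and ultrasound 1 was highest. The log2 change was 0.64 with a standard error of 0.22 (95% interval 0.12 to 1.16, limma adjusted p 0.110), above 91.8% of genes tested. It stayed positive, from 0.47 to 0.97, under all 13 alternatives, with adjusted p from 0.0965 to 0.297. The value of 0.97 is that of ultrasound 1 alone against the controls. Reads numbered 756 to 1978 per library. The library with the most Cish was also the one with the most neutrophil marker RNA, and this link was not tested.

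Socs2 (NCBI Gene 216233), an inhibitor best known for its part in growth hormone signalling, was the least abundant of the 10. Its level was 0.403, 0.369 and 0.269 FPKM in controls, and 0.868, 0.418 and 0.241 FPKM in ultrasound 1, 2 and 3, from 120 to 400 reads per library. It did not pass the filter of 1 FPKM in 3 libraries and was left out of the main test. With no filter its log2 change was 0.14 (limma adjusted p 0.574), on a scale of log2(FPKM + 1) that understates changes at so low a level. The authors' deposited table gives Socs2 a log2 fold change of 0.43 with q 0.597.

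Pim1 (NCBI Gene 18712) and Pim2 (NCBI Gene 18715) encode serine and threonine kinases that are active as soon as they are made, so that their transcript and protein levels set their activity. Pim1 had 192, 164 and 201 FPKM in the 3 controls, against 167, 72.8 and 94.5 FPKM in ultrasound 1, 2 and 3. As with Socs3, ultrasound 1 was inside the control range and ultrasound 2 and ultrasound 3 were below it. The log2 change of Pim1 was -0.81 with a standard error of 0.29 (limma adjusted p 0.117). Without ultrasound 1 the log2 change of Pim1 was -1.15 (limma adjusted p 0.00107), and for ultrasound 1 alone against controls it was -0.14. In the authors' deposited table Pim1 has a log2 fold change of -0.85 and q 0.0498. The 2 libraries lowest in Socs1, Socs3 and Pim1 were also those with the lowest mitochondrial share and the highest B cell and NK cell marker levels, and the part of these in the values was not tested.

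Pim2 had 65.4, 72.3 and 73.8 FPKM in the 3 controls, against 77.8, 58.8 and 48.1 FPKM in ultrasound 1, 2 and 3. Ultrasound 1 was above every control and the other ultrasound libraries were below every control. The log2 change was -0.22 with a standard error of 0.17 (limma adjusted p 0.398). It was -0.40 without ultrasound 1 (limma adjusted p 0.0143) and 0.14 for ultrasound 1 alone against controls. With any single library left out the change stayed negative, from -0.40 to -0.06.

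Stat3 (NCBI Gene 20848) encodes the factor used by IL-6, IL-10 and IL-21, and Stat4 (NCBI Gene 20849) the factor used by IL-12. Stat3 had 65.8, 62.4 and 59.8 FPKM in the 3 controls, against 76.0, 65.6 and 72.6 FPKM in ultrasound 1, 2 and 3. Only ultrasound 2 reached into the control range, at its upper edge. The log2 change of Stat3 was 0.18 with a standard error of 0.09 (95% interval -0.03 to 0.40, limma adjusted p 0.210). Stat4 had 49.5, 56.2 and 55.2 FPKM in the 3 controls, against 40.1, 53.5 and 47.9 FPKM in ultrasound 1, 2 and 3. Ultrasound 1 was the lowest and ultrasound 2 lay within the controls. Its log2 change was -0.19 with a standard error of 0.12 (95% interval -0.48 to 0.10, limma adjusted p 0.312).

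Stat5a (NCBI Gene 20850) and Stat5b (NCBI Gene 20851) encode the factors used by IL-2, IL-7 and IL-15. The 2 genes lie next to each other on chromosome 11, with Stat3 beyond them, and are close copies, so reads shared between them leave the split of their values uncertain. Stat5a had 19.6, 20.8 and 20.1 FPKM in the 3 controls, against 19.0, 20.0 and 19.1 FPKM in ultrasound 1, 2 and 3. Stat5b had 25.6, 28.4 and 27.5 FPKM in the 3 controls, against 27.6, 27.5 and 28.6 FPKM in ultrasound 1, 2 and 3. Both genes overlapped between groups, with an SD of 2.13% to 5.21% of the mean within a group. The log2 change was -0.06 for Stat5a (95% interval -0.24 to 0.13, limma adjusted p 0.630) and 0.04 for Stat5b (95% interval -0.15 to 0.23, limma adjusted p 0.764). The sign of the Stat5b change turned with median-of-ratios scaling, where it was -0.08. That scaling moved the median log2 change of all genes tested from 0.09 to -0.02, and the 9 genes had a median of -0.19 in the main fit, with 3 positive and 6 negative values.

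**Figure D3:**
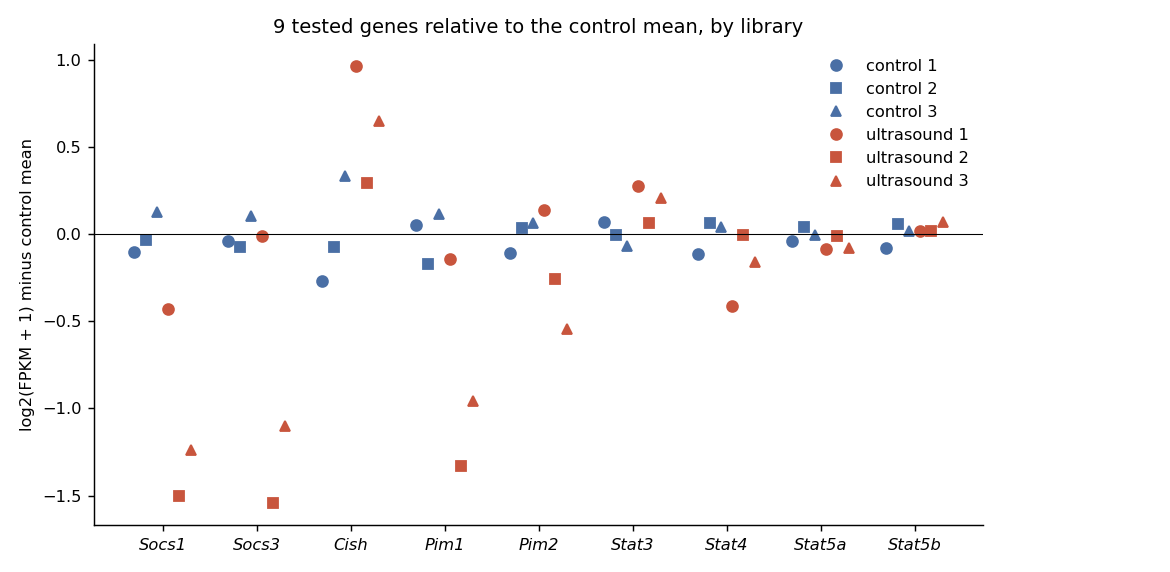
Log2(FPKM + 1) minus the control mean (vertical axis) for the 9 tested genes, with one marker per library (controls blue, ultrasound red). Ultrasound 2 and ultrasound 3 lie between -0.96 and -1.54 for Socs1, Socs3 and Pim1, ultrasound 1 lies at -0.43, -0.01 and -0.14 for these genes, and all libraries lie near 0 for Stat5a and Stat5b.

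Ratios of 2 genes within a library do not depend on how libraries are scaled to each other. The ratio of Socs1 to Cish FPKM was 7.65, 6.88 and 5.55 in the 3 controls, against 2.31, 1.76 and 1.63 in ultrasound 1, 2 and 3. The ratio of Socs3 to Cish was 34.9, 29.1 and 23.8 in the 3 controls, against 13.6, 7.73 and 8.04 in ultrasound 1, 2 and 3. Both ratios kept the groups apart in every library, ultrasound 1 included, where Socs3 was at control level and Cish above every control. Socs1 to Stat3, inhibitor to factor, was 0.580, 0.644 and 0.752 in controls and 0.398, 0.210 and 0.231 in ultrasound 1, 2 and 3. The ratio of Socs3 to Stat3 was 2.65, 2.72 and 3.22 in controls and 2.33, 0.924 and 1.14 in ultrasound 1, 2 and 3. For Pim1 to Pim2 it was 2.93, 2.27 and 2.72 in controls and 2.15, 1.24 and 1.97 in ultrasound 1, 2 and 3, and for Stat5a to Stat5b 0.765, 0.732 and 0.732 against 0.689, 0.728 and 0.667. These 2 ratios also did not overlap, but by margins of 2.27 against 2.15 and 0.732 against 0.728. The other 2 of the 8 ratios computed overlapped between groups: Cish to Stat5b was 0.195, 0.206 and 0.295 in controls and 0.475, 0.285 and 0.361 in ultrasound 1, 2 and 3, and Pim1 to Stat5b was 7.48, 5.77 and 7.30 against 6.06, 2.65 and 3.31. The pairs were chosen with the values of the genes known, and no test was made on them.

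**Figure D4:**
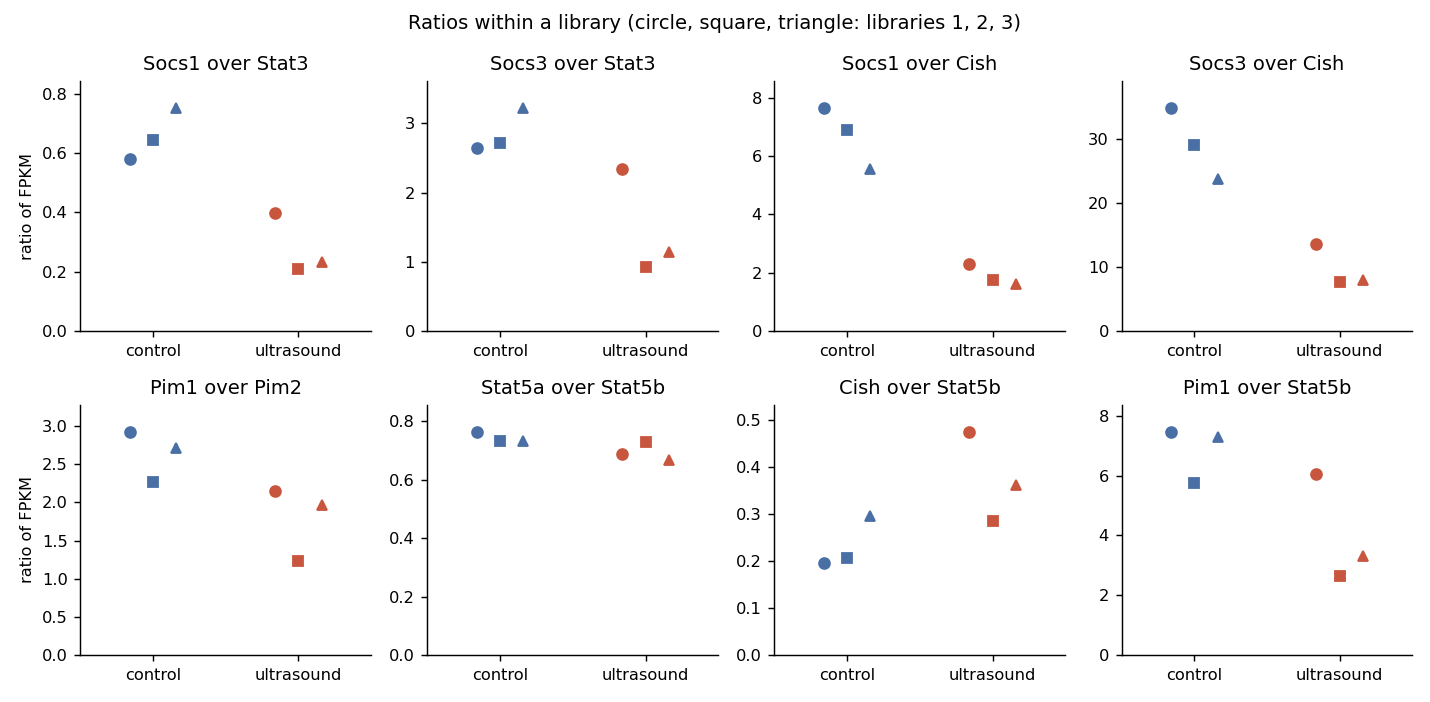
Ratio of the FPKM of 2 genes within each library, for 8 pairs (vertical axes, each from 0), in 3 controls (blue) and 3 ultrasound libraries (red). The ratio of Socs1 to Cish is 5.55 or more in controls and 2.31 or less in ultrasound libraries, the ratio of Stat5a to Stat5b nearly touches between groups, and the last 2 pairs overlap.

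Among genes of at least 10 FPKM on average, those nearest to 4 of these genes were sought by the distance of their log2 values, centred on the control mean, over the 6 libraries. Nearest to Socs1 were H2-Q6, at a distance of 0.18, Ccnl1 at 0.18 and Nfkbia at 0.20. H2-Q6 belongs to a family of near-identical genes, so its value is uncertain. Nfkbia, which encodes the NF-kB inhibitor IkB-alpha, had 330, 328 and 355 FPKM in controls and 238, 106 and 144 FPKM in ultrasound 1, 2 and 3. It shared with Socs1 an intermediate level in ultrasound 1. Nearest to Socs3 were Tnf at 0.31, Pim1 at 0.32 and Rhob at 0.34, and nearest to Pim1 were Gadd45g at 0.18, Tnf at 0.20 and Rpl36 at 0.26. Tnf, a cytokine gene, had 37.1, 32.3 and 38.8 FPKM in controls and 36.8, 14.4 and 17.3 FPKM in ultrasound 1, 2 and 3, with ultrasound 1 inside the control range. Nearest to Cish were Ddit4 at 0.39, Foxp3 at 0.42 and Fdps at 0.44, so that no gene came as close to it as to Socs1.

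Other genes of the pathway were taken from lists of 60 genes, of which 52 were tested. Of these 52, limma called 5 higher (Il10rb, Il12rb2, Ptpn1, Sh2b3 and Ccnd3) and 3 lower (Ifng, Pim3 and Junb) at an adjusted p under 0.05, where 6.55% of all genes tested were called higher and 1.56% lower. With median-of-ratios scaling the 5 higher calls were lost and the 3 lower ones kept, where 4.39% of all genes were called, 2.64% higher and 1.76% lower. In voom on recovered reads Il12rb2 was the 1 higher call kept, beside the 3 lower ones, where 5.28% of all genes were called, 3.31% higher and 1.97% lower. Their median log2 change was 0.10, where that of all genes tested was 0.09. All ultrasound libraries lay above all controls for 18 of the 52, where 25.9% of all genes tested did, and below them for 8, where 8.96% of all genes did. Without control 1, Ifng and Ptpn1 alone remained called, where 5.32% of all genes were called, and without ultrasound 1, 32 of the 52 were, against 53.7%. In limma 0 of these genes, and 0 of all genes tested, were called when control 2, control 3, ultrasound 2 or ultrasound 3 was left out. In those 4 limma fits, 13, 18, 18 and 15 of the 52 genes had an unadjusted p under 0.05, where 18.4%, 20.2%, 19.3% and 18.8% of all genes did.

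Among 13 ligand genes, 5 were tested and 1 fell, where 1.56% of all genes tested were called lower. Ifng, which encodes interferon-gamma, a strong inducer of Socs1, had 34.8 to 49.7 FPKM in controls and 18.3, 9.39 and 12.1 FPKM in ultrasound 1, 2 and 3, a log2 change of -1.58 with a standard error of 0.24 (limma adjusted p 0.0304). Osm, which encodes oncostatin M, a ligand of gp130 receptors, had 7.47 to 9.997 FPKM in controls and 24.6, 11.1 and 12.6 FPKM in ultrasound 1, 2 and 3 (limma adjusted p 0.157). Osm, like Cish, was highest in ultrasound 1.

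All 19 receptor genes were tested, and 2 rose and 0 fell, where 8.11% of all genes passed in either direction. Both calls were lost with median-of-ratios scaling (limma adjusted p 0.0968 for Il10rb and 0.0608 for Il12rb2). The authors' deposited table gives q 0.0524 for Il10rb and 0.000126 for Il12rb2, where 12.3% of its genes have q under 0.05. Il10rb, a shared chain of the IL-10 and IL-22 receptors, had 36.2 to 37.2 FPKM in controls and 44.0 to 52.9 in ultrasound libraries (log2 change 0.43, limma adjusted p 0.0457). Il12rb2, the IL-12 receptor chain that docks STAT4, was low, at 0.477 to 0.609 FPKM in controls and 1.02 to 1.48 in ultrasound libraries (log2 change 0.53, limma adjusted p 0.0454). At this level the log2(FPKM + 1) scale understates the change of Il12rb2. It was 1.03 with a pseudocount of 0.1 and 1.04 in the authors' deposited table. The most abundant receptor gene was Il2rg, the common gamma chain, at 382 to 416 FPKM in controls and 370 to 472 in ultrasound libraries, with a log2 change of 0.08 (limma adjusted p 0.631). Ifngr1, the ligand-binding chain for interferon-gamma, had 116 to 136 FPKM in controls and 192, 153 and 172 FPKM in ultrasound 1, 2 and 3 (limma adjusted p 0.0578), so that all ultrasound libraries were above all controls.

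None of the 4 Janus kinase genes and neither of 2 other STAT genes passed in limma, with 0 and 1 of them at an unadjusted p under 0.05. Of all genes tested, 8.11% passed and 31.2% had an unadjusted p under 0.05 in limma. Jak1 had 194 to 213 FPKM in controls and 165 to 192 in ultrasound libraries, and Jak3, the partner of the common gamma chain, 87.1 to 94.2 and 78.6 to 86.4 (limma adjusted p 0.199 and 0.260). For both genes the ultrasound range lay wholly under the control range, as for 8.96% of all genes tested. In the authors' deposited table Jak1, Jak2 and Jak3 have q under 0.05, as do 12.3% of its genes. Stat6, used by IL-4, had 68.2 to 77.3 FPKM in controls and 78.0 to 103 in ultrasound libraries (limma adjusted p 0.154). Stat2, used by type I interferons, had 22.3 to 25.9 FPKM in controls and 22.7, 26.7 and 35.1 FPKM in ultrasound 1, 2 and 3 (limma adjusted p 0.428).

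Of 5 further SOCS and Pim genes, 1 fell, where 1.56% of all genes tested did. Pim3, the third kinase of the Pim family, had 32.9, 38.5 and 43.4 FPKM in the 3 controls, against 23.8, 12.1 and 15.6 FPKM in ultrasound 1, 2 and 3. Like Socs1, it was intermediate in ultrasound 1, and its groups did not overlap. Its log2 change was -1.15 with a standard error of 0.23 (limma adjusted p 0.0384). Socs4 had 6.93 to 7.77 FPKM in controls and 9.62, 4.51 and 4.83 FPKM in ultrasound 1, 2 and 3 (limma adjusted p 0.504).

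Of 8 other inhibitors of the pathway, 2 rose, where 6.55% of all genes did. Both calls, Ptpn1 and Sh2b3, were lost with median-of-ratios scaling (limma adjusted p 0.0578 and 0.0786) and in voom on recovered reads (adjusted p 0.0512 and 0.0712). In the authors' deposited table they have q 0.00568 and 0.00994, where 12.3% of its genes have q under 0.05. Ptpn1, a phosphatase that acts on JAK2 and TYK2, had 38.1 to 45.5 FPKM in controls and 57.5 to 66.1 in ultrasound libraries (log2 change 0.60 with a standard error of 0.10, limma adjusted p 0.0311). Sh2b3, which encodes the adaptor LNK, an inhibitor of JAK2 signalling, had 13.7 to 15.9 and 19.1 to 30.2 FPKM (log2 change 0.76, limma adjusted p 0.0496). Ptpn6, the phosphatase SHP-1, had 148 to 170 FPKM in controls and 153, 262 and 281 FPKM in ultrasound 1, 2 and 3 (limma adjusted p 0.173). The ultrasound 1 value of Ptpn6 lay within the controls, as did that of Socs3, but the other ultrasound libraries were higher. Their summed B cell, NK cell and dendritic cell markers were higher as well, and the part of these cells in the Ptpn6 values was not tested.

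Of 9 genes known as STAT5 or STAT3 targets, 1 rose and 1 fell, where 6.55% and 1.56% of all genes did. The call of Ccnd3 was lost with median-of-ratios scaling (limma adjusted p 0.0820) and in voom on recovered reads (adjusted p 0.0645), and that of Junb was kept (0.0494 and 0.0447). The authors' deposited table gives q 0.0262 for Ccnd3 and 0.000153 for Junb, where 12.3% of its genes have q under 0.05. Ccnd3, which encodes cyclin D3, had 76.2 to 81.8 FPKM in controls and 103 to 121 in ultrasound libraries (log2 change 0.49, limma adjusted p 0.0339). Junb, an AP-1 subunit that antigen receptor signals also induce, had 966 to 1357 FPKM in controls and 644, 268 and 404 FPKM in ultrasound 1, 2 and 3 (log2 change -1.47, limma adjusted p 0.0407).

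**Figure D5:**
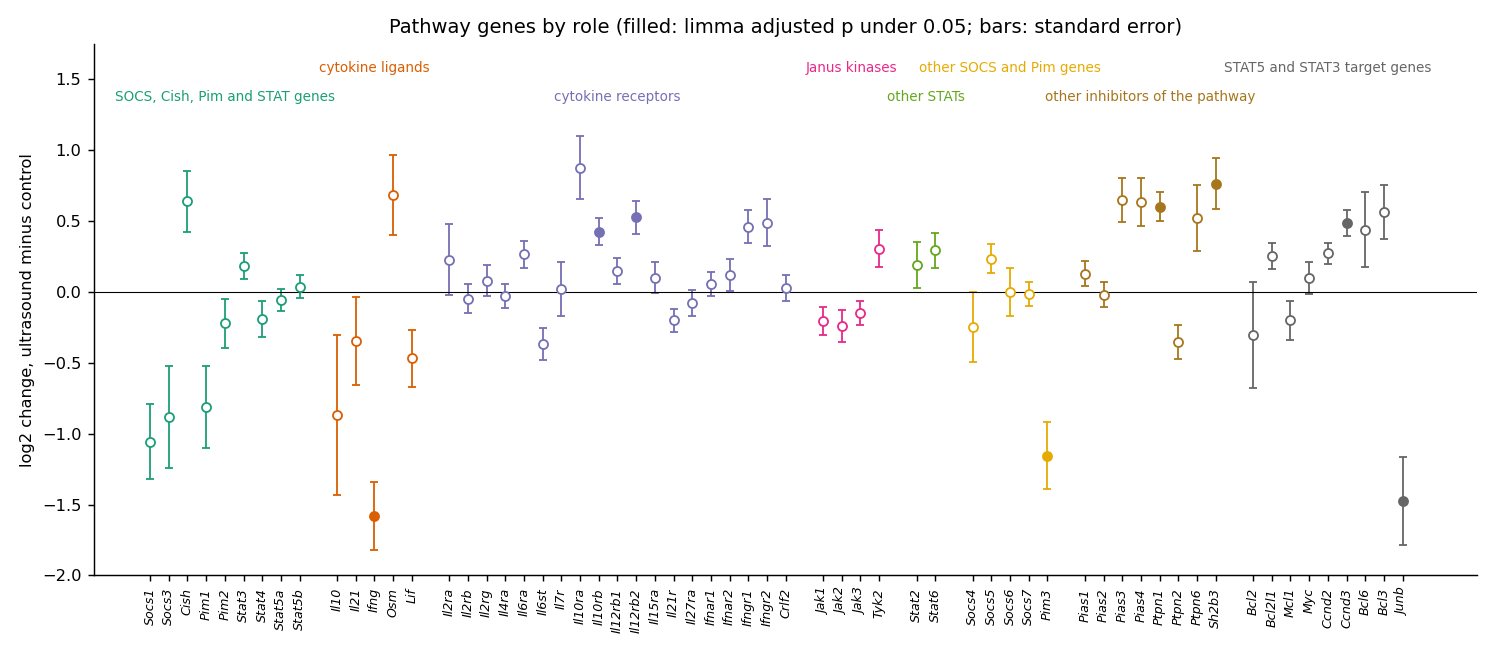
Log2 change, ultrasound minus control, with its standard error (vertical axis) for 9 of the 10 genes and 52 other pathway genes, grouped by role along the horizontal axis. Filled points, 8 in all, passed a limma adjusted p of 0.05, and none of the SOCS, Cish, Pim1, Pim2 and STAT genes at the left is filled.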

How the data were processed

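The study measured RNA of CD8 T cells sorted from mouse spleen in 3 control and 3 ultrasound libraries, grouped by their titles. The authors deposited FPKM per library, and the signal columns are means of DESeq2 normalized counts, per the file headers. The ratio (fold change), its log2, and the p-value and q-value are the authors' DESeq2 comparison, per the file headers. The submitters' processing notes name mm10, HISAT2, HTSeq, DESeq2 and R 3.2.0, with no role or order, so strandedness and the treatment of shared reads are not given in the sources used here. The library kit's version differs between the design text and the extraction protocol.

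The files hold no counts, so the main test was the one planned for FPKM: limma 3.58.1 with trend and robust options (R 4.3.3), fitted to log2(FPKM + 1) of genes with at least 1 FPKM in 3 libraries, two-sided, with Benjamini-Hochberg adjustment over all 10655 genes and a threshold of 0.05. Fold changes on this scale understate the change of low genes. Whole reads were recovered from the FPKM columns and group means: 100% of 64001 values under 1000 reads lay within 0.05 of a whole number. Libraries hold 35024080 to 38113103 reads, without molecular identifiers. In simulated data for this comparison, limma recovered 100% of 198 genes changed 2-fold at a dispersion of 0.01 over 10566 genes (11 false calls), and 61.1% at 0.05 over 10536 genes (7 false calls). Each simulation gave all genes the same dispersion and had no library that stood apart. In the ultrasound libraries here, the SD of the 9 tested genes ran from 2.13% of the mean (Stat5b) to 58.0% (Socs3). The simulated shares therefore do not give the share of such changes that would be found in these data.

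The genes and lists were chosen with earlier results of these data known. Named genes are the 10 genes, the other pathway genes that passed and the 2 most abundant of each list, cell type markers, and the 3 genes nearest to Cish, Socs1, Socs3 and Pim1. A gene of the planned lists is not reported here and is in none of their counts. Alternatives covered scaling, pseudocount, filter, voom on recovered reads, a replicate block, a term for ultrasound 2 and 3, the authors' values and each library left out. Figures used Python 3.11.15 and matplotlib 3.10.9.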

Additional observations from a re-analysis of the deposited data

How the results depend on the processing

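Of the 10 genes, 0 passed in the main fit and under the other limma settings with all 6 libraries. Leaving out one library gave 0 to 4 of them, the 4 without ultrasound 1, and the authors' deposited table gave 2. Their log2 changes kept their sign in all but 5 of 118 recomputed values. Pim2 turned to 0.14 with a term for ultrasound 2 and 3, where the change is that of ultrasound 1 alone against the controls. Stat5b turned to -0.084 with median-of-ratios factors, -0.065 with voom and -0.087 in the authors' deposited table, and ranged from -0.0029 to 0.069 when one library was left out.

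Over all genes, 864 passed (698 higher, 166 lower), against 468 (281 higher, 187 lower) with median-of-ratios factors, 563 (353 and 210) with voom on recovered reads, 150 with a term for ultrasound 2 and 3, 2179 in the authors' deposited table, and 0 with no filter in limma, where 4216 had an unadjusted p under 0.05. Leaving out one library gave 0 to 5727. Of the other pathway genes, 8 passed, against 3 with median-of-ratios factors and 4 with voom on recovered reads. The authors' deposited table gave 16 of them, limma with no filter 0, and leaving out one library 0 to 32. For these differences the cause was not tested.

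The labels do not say that a shared number marks a shared source, and libraries with the same number did not deviate together (r of -0.04, 0.05 and 0.06 across genes). In a limma fit with the replicate block, 0 genes passed, including 0 of the 10 and 0 other pathway genes. An unadjusted p under 0.05 was reached there by 3249, 4 and 21.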
